A study of Mus musculus with 6 samples.

Results

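Noncoding host transcripts of small nucleolar RNAs (snoRNAs) were examined among the RNAs bound by STRAP, a WD40 protein associated with the spliceosome. The 8 hosts are Gas5, Snhg1, Snhg3, Snhg5, Snhg6, Snhg8, Snhg12 and Snhg17. They were chosen by name, with earlier results of these data known, so comparisons of them with other genes are descriptive. A peak was counted for a host when it overlapped the span of that gene in the Gencode M21 annotation of mm10 by 1 bp or more. The hosts held 28 of the 10748 peaks of the 6 libraries, and 7 of the 8 held at least 1. STRAP eCLIP, in which RNA crosslinked by UV light to a protein is pulled down with an antibody and sequenced, was carried out on embryo eCLIP-1 and embryo eCLIP-2 (pooled mouse embryos labelled E9.5) and on EB eCLIP-1 and EB eCLIP-2 (wild-type EBs after 9 days of culture, that is, embryonic stem cells that differentiate in clusters). For each tissue there was also 1 size-matched input library (embryo input, EB input) prepared from the same kind of lysate with no antibody step. No Strap knockout library was analysed here, and embryos and EBs are mixtures of cell types.

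A snoRNA is a short nuclear RNA that guides the modification of other RNAs, mainly ribosomal RNA. Box C/D snoRNAs guide 2′-O-methylation and H/ACA snoRNAs guide pseudouridylation. In vertebrates most of them lie in introns of a host gene and are cut out after splicing, where the proteins bound to the snoRNA protect its ends from exonucleases. The hosts of the Snhg family and Gas5 are spliced RNAs without a long conserved reading frame, and many of them are degraded quickly in the cytoplasm. Their exons are less conserved than the snoRNAs in their introns. A peak on a snoRNA gene can come from the free snoRNA or from the unspliced host, and peaks alone cannot tell these apart.

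The 8 hosts hold 30 snoRNA genes on their own strand, counting overlapping entries once. They are not all intronic: 22 lie outside the exons of the basic annotation, 4 lie wholly within an exon of a host transcript (Snora44, Snora61 and Snord99 in Snhg12, and Gm24411 in Snhg17), and 4 lie within one in part (Gm25855 with 60 of 72 bases and Snord22 with 59 of 126 in Snhg1, Snora73a with 159 of 205 in Snhg3, and Gm26003 with 105 of 113 in Snhg17). Gas5 holds 9, Snhg1 8, Snhg12 4, Snhg17 3, Snhg3 and Snhg5 2 each, and Snhg6 and Snhg8 1 each. RefSeq lists a snoRNA at the same place for 28 of the 30. Of the 30 genes, 16 had both a C box (TGATGA, starting in the first 15 bases) and a D box (CTGA, within the last 15 bases), 5 others had ACA ending 2 to 4 bases before the 3′ end, and 9 had neither pattern in these letters. Over all 1507 snoRNA genes on assembled chromosomes, 20.2% held the C and D boxes on their own strand and 0 on the other strand, and 43.0% held ACA without both boxes on their own strand and 7.96% on the other. The sequences printed here are those under the summits that the results turn on, read from GRCm38 on the strand of the host, with the C and D boxes or the ACA in capitals.
Snord22 in Snhg1 (chr19:8725866-8725991, plus strand): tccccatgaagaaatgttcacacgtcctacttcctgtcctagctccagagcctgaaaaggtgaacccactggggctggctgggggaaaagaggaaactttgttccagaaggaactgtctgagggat
Snora24 in Snhg8 (chr3:123507937-123508066, minus strand): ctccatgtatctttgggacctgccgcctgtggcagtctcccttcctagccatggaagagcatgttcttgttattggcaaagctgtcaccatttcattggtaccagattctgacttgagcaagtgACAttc
Snord87 in Snhg6 (chr1:9942463-9942549, minus strand): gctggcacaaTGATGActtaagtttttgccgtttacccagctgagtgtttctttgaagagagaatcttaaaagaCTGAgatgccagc
Snora44 in Snhg12 (chr4:132309941-132310069, plus strand): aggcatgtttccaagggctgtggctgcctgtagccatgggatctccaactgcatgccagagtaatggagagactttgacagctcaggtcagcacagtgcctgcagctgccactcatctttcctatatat
Snora61 in Snhg12 (chr4:132310240-132310369, plus strand): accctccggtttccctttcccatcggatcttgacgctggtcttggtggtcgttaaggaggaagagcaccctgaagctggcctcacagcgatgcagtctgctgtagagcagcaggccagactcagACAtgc
Snora73a in Snhg3 (chr4:132352775-132352979, minus strand): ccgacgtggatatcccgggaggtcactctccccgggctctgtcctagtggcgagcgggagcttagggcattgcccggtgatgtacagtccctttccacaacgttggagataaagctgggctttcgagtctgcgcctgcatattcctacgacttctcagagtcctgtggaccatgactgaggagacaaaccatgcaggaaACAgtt
Snora73b in Snhg3 (chr4:132352322-132352526, minus strand): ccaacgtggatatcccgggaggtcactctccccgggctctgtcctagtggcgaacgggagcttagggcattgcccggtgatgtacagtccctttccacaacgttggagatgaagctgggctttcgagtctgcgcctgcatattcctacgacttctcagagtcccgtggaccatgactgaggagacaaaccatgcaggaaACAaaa
Gm22489 in Gas5, a SNORD75 in RefSeq (chr1:161035850-161035911, plus strand): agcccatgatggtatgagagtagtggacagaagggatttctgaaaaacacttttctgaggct
Gm22357 in Gas5, a SNORD24 in RefSeq (chr1:161036057-161036139, plus strand): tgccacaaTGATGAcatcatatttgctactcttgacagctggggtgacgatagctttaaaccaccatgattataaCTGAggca
Snord22 and Gm22489 had no exact TGATGA in the window and Snora44 had no ACA there, so these 3 are printed without capitals. Snora73a and Snora73b were identical at 198 of 205 positions (96.6%). At 90% identity over 90% of the length, 8 of the 30 snoRNA genes had a copy elsewhere in the assembled genome: Snora73a and Snora73b (1 each, the other gene of the pair included), Snord50a and Snord50b (4 each), Snora44 (1), Snora61 (2), and Gm24411 (3) and Gm23925 (4) in Snhg17. Tags on these 8 may belong to a copy.

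The libraries differed in depth. The peak caller counted 136935 and 185125 tags for the 2 embryo eCLIP libraries and 165566 and 228422 for the 2 EB eCLIP libraries, against 6289516 and 6825190 for the inputs of embryo and EB. Between 10.3% and 16% of the eCLIP tags lay in peaks, against 0.989% of the embryo input tags and 0.754% of the EB input tags. The smallest peak held 3 or 4 tags in the eCLIP lists and 10 tags in the input lists, so a host with few tags cannot appear in an input list, and a missing peak sets no upper limit. Peak strength, given as a fold and a p, refers to the background within the same list, not to the input. Peaks were called with a fragment size of 200 in 5 libraries and of 76 in EB eCLIP-2, which has the narrowest peaks. Markers were scored by the presence of a peak only. Embryonic globin and related genes had peaks for 5 of 6 in embryo eCLIP-1, 3 of 6 in embryo eCLIP-2 and 0 in both EB eCLIP libraries, and of 5 pluripotency genes Pou5f1, Nanog and Dppa5a had peaks in both EB eCLIP libraries and none in embryo eCLIP. The inputs did not follow this: Hba-x had a peak in the EB input, and no blood marker had one in the embryo input. The neuroectoderm list had Nes and Nnat in embryo eCLIP-1, Nnat in embryo eCLIP-2, Sox2 in both EB eCLIP libraries and Nnat in the EB input, and the heart and muscle list had Myh7 in embryo eCLIP-1 and in the embryo input and Actc1 in embryo eCLIP-2. None of the 3 yolk sac markers had a peak in any library.

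All 23 eCLIP peaks on the hosts overlapped at least 1 snoRNA gene, and so did all 5 input peaks. Of the 28 peaks, 11 covered 1 snoRNA gene and 17 covered more than 1. Of the 30 snoRNA genes, 24 lay under an eCLIP peak, 13 lay under an eCLIP summit, the base of highest tag coverage, and 11 lay under an input peak. Over the annotation, 115 of 1558 genes annotated as snoRNA or scaRNA (small Cajal body RNA) lay under an eCLIP peak (7.38%). Overlapping entries were counted separately there, unlike among the 30. Snord22 in Snhg1 and Snora24 in Snhg8 were the 2 snoRNA genes under a peak in all 4 eCLIP libraries. At the level of genes, Snhg1 and Snhg8 were also the 2 of 7 hosts with a peak in all 4 eCLIP libraries, against 8.82% of the 4546 genes with a peak in any library.

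**Figure D1:**
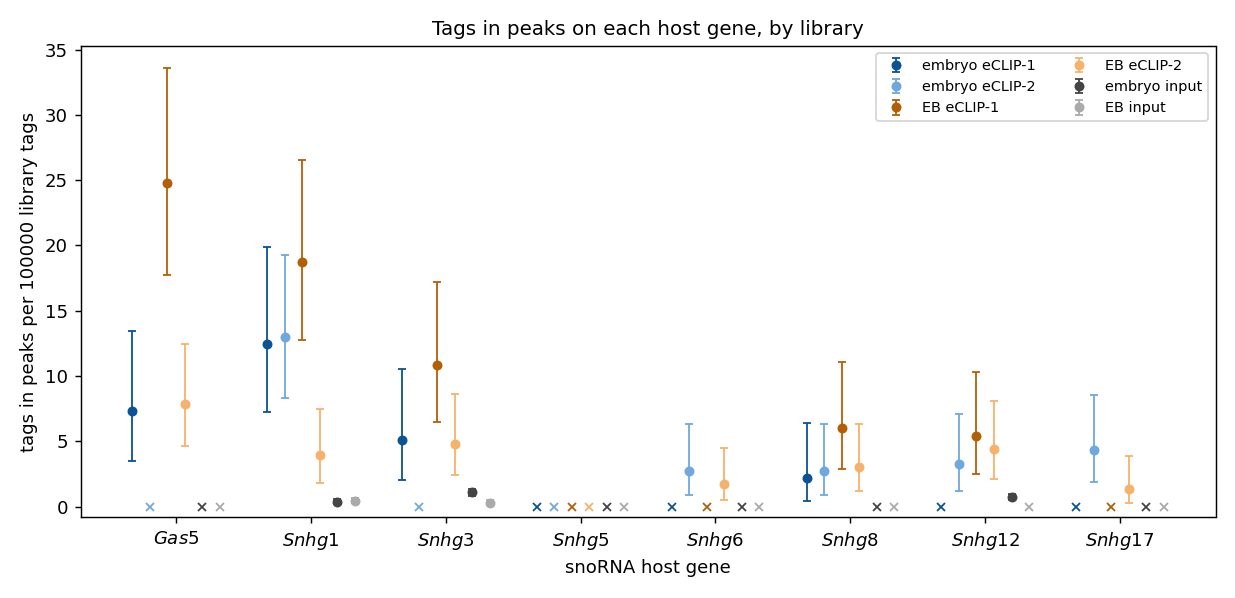
Tags in peaks on each host per 100000 tags of the library, for the 4 eCLIP and then the 2 input libraries; bars are 95% exact Poisson intervals, for counting error only, and crosses mark libraries with no peak. Gas5 in EB eCLIP-1 and Snhg1 in most eCLIP libraries stand highest, the input points lie near 0, and Snhg5 has crosses only.

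Snhg1 (chr19:8723475-8726443, plus strand) held tags in every library, and its peaks met at Snord22 (U22), the snoRNA gene nearest its 3′ end. Embryo eCLIP-1 had 17 tags in 1 peak (12.4 per 100000 tags of the library), embryo eCLIP-2 had 24 in 2 peaks (12.96 per 100000), EB eCLIP-1 had 31 (18.7 per 100000) and EB eCLIP-2 had 9 (3.94 per 100000), against 23 tags for the embryo input (0.366 per 100000) and 31 for the EB input (0.454 per 100000). The 4 eCLIP values lay above both inputs. One peak in each eCLIP library had its summit inside Snord22. Both input summits fell just upstream of it, on the host exon that reaches into Snord22. As deposited, the 2 embryo eCLIP summits lie on this same exon, in the part it shares with Snord22. The 2 EB eCLIP summits lie in the part of Snord22 beyond it. With summits moved by 62 nt to line up with the fragment size of EB eCLIP-2, the embryo summits lay at 8725944 and 8725943. The EB eCLIP-2 summit lay at 8725945, and that of EB eCLIP-1 moved to 8726008, past the end of Snord22. Both input summits then lay within Snord22. No difference in position between the tissues can therefore be read from these summits. The second peak of embryo eCLIP-2 covered the 4 snoRNA genes nearest the start of Snhg1 (Gm25855, Gm25894, Gm24452 and Gm24453, a SNORD25, SNORD26, SNORD27 and SNORD28 in RefSeq) with 13 tags and its summit on Gm25894. EB eCLIP-1 had a single peak over all 8 snoRNA genes, so its 31 tags cannot be divided among them. In EB eCLIP-2, by contrast, the peak (chr19:8725888-8726003) was 116 bp long, and 89.7% of it lay on Snord22.

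For hosts with peaks in both eCLIP and input, the ratio of eCLIP to input tags, each per library tag, was 33.9 for Snhg1 in embryo eCLIP-1 (95% exact interval 17.0 to 66.4) and 35.5 in embryo eCLIP-2 (19.2 to 65.7). It was 41.2 in EB eCLIP-1 (24.2 to 70.1), while EB eCLIP-2 had a ratio of 8.67 (3.63 to 18.7). Over all genes with both, the median ratio was 23.0, 24.2, 22.1 and 16.4 in the same libraries (298, 278, 278 and 275 genes). Snhg1 lay above this median in 3 libraries and below it in EB eCLIP-2. In embryo eCLIP-1 and embryo eCLIP-2 it lay between the lower and upper quartiles of these genes (14.4 to 41.5 and 14.7 to 42.0). It lay above the upper quartile of 36.0 in EB eCLIP-1 and below the lower quartile of 8.96 in EB eCLIP-2. The intervals of both EB ratios include these quartiles. The peaks behind the Snhg1 ratios were not equally long. In EB eCLIP-2, 116 bp stood against 1433 bp in the EB input, while in EB eCLIP-1 the peak was 2575 bp long.

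Snhg8 (chr3:123507552-123508404, minus strand) was the shortest host, and its peaks had folds of 40 or more over the background of the library. Its peaks held 3 and 5 tags in embryo eCLIP-1 and embryo eCLIP-2, and 10 and 7 tags in EB eCLIP-1 and EB eCLIP-2, at 50, 40, 41.67 and 102.34 times the background of each library, and neither input had a peak. Per 100000 library tags these were 2.19, 2.70, 6.04 and 3.06. Counts this low have wide intervals, from 0.452 to 6.40 per 100000 in embryo eCLIP-1 and from 2.90 to 11.1 in EB eCLIP-1, and these overlap. The summit lay in Snora24 in 3 of the 4 libraries. In embryo eCLIP-2 it lay in the intron before Snora24 by the basic annotation, and the peak of that library ended 13 nt past the 3′ end of the snoRNA. The comprehensive annotation places this summit on a host exon, and the moved summit lies in Snora24.

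Gas5 (growth arrest specific 5, chr1:161034422-161038539, plus strand) held 10 tags in embryo eCLIP-1 (7.30 per 100000), 41 in EB eCLIP-1 (24.8 per 100000) and 18 in EB eCLIP-2 (7.88 per 100000), with no peak in embryo eCLIP-2 or in either input. The highest value was in EB eCLIP-1, and embryo eCLIP-1 and EB eCLIP-2 were close to each other. The peaks fell on 2 stretches of the gene. In both EB libraries a peak (chr1:161035634-161036898 in EB eCLIP-1 and chr1:161035732-161036329 in EB eCLIP-2) covered Gm22489 and Gm22357, with the summit on Gm22357 in EB eCLIP-1, whereas in EB eCLIP-2 it lay on Gm22489. A second stretch, around Mir5117 (annotated as a snoRNA gene) and Snord80, was held by embryo eCLIP-1, whose summit lay on the exon between these snoRNA genes, and by EB eCLIP-1, whose summit lay on Mir5117. Gm26224, a SNORD74 in RefSeq, and Snord78 lay under no peak.

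**Figure D2:**
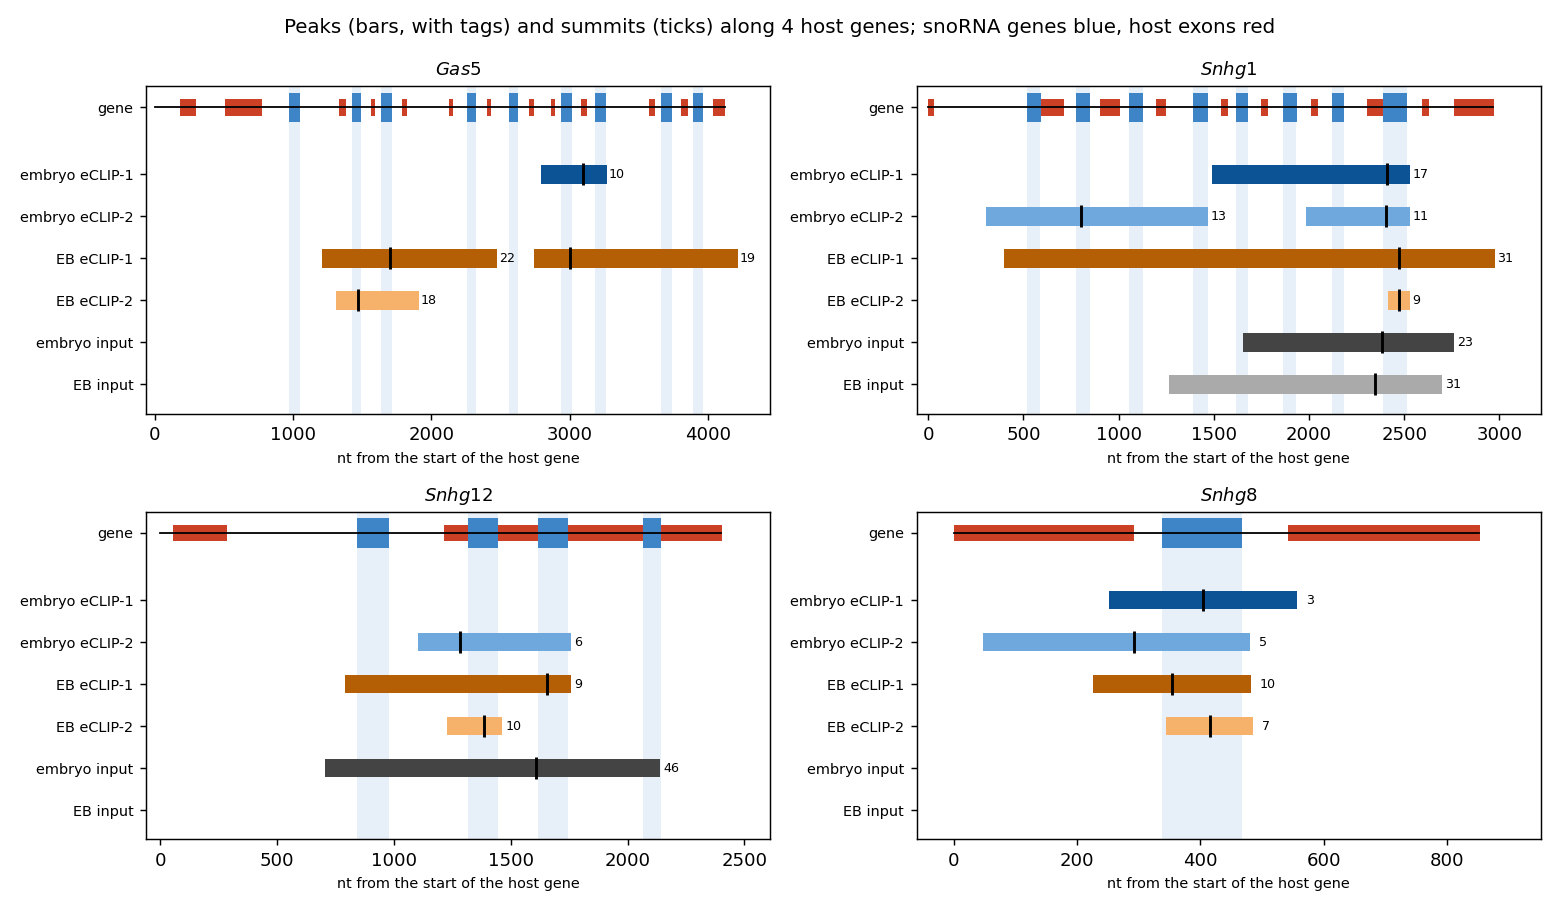
Peaks along Gas5, Snhg1, Snhg12 and Snhg8, in nt from the start of each gene; each bar is a peak with its tags beside it, black ticks are summits, and the top row shows snoRNA genes in blue and host exons in red. Peaks of EB eCLIP-1 are the longest on Gas5 and Snhg1, and the EB eCLIP-2 peaks on Snhg1 and Snhg8 fit within a snoRNA gene and the bases after it.

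Snhg3 (chr4:132348014-132353686, minus strand) carries Snora73a and Snora73b (U17), H/ACA snoRNAs that take part in early cleavage of the ribosomal RNA precursor rather than in pseudouridylation. Its peaks held 7 tags in embryo eCLIP-1 (5.11 per 100000), 18 in EB eCLIP-1 (10.9 per 100000) and 11 in EB eCLIP-2 (4.82 per 100000), against 68 for the embryo input (1.08 per 100000) and 21 for the EB input (0.308 per 100000). Embryo eCLIP-2 had no peak. Snhg3 was the host with the highest input value in the embryo, and its eCLIP to input ratio was 4.73 in embryo eCLIP-1 (1.83 to 10.3), 35.3 in EB eCLIP-1 (17.7 to 69.6) and 15.7 in EB eCLIP-2 (6.81 to 34.0). All 5 summits lay on a snoRNA gene, on the exonic part of Snora73a in embryo eCLIP-1 and EB eCLIP-2 and on Snora73b in EB eCLIP-1 and in both inputs. Because the 2 snoRNA genes are near-identical, the choice between them is uncertain. All 5 peaks also overlap Rcc1, which is annotated on the same strand, and Gm17300 on the other, so the tags cannot be assigned to Snhg3 alone.

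Snhg12 (chr4:132308623-132311024, plus strand) held 6 tags in embryo eCLIP-2 (3.24 per 100000), 9 in EB eCLIP-1 (5.44 per 100000) and 10 in EB eCLIP-2 (4.38 per 100000), against 46 in the embryo input (0.731 per 100000) and no peak in the EB input. The ratio in embryo eCLIP-2 was 4.43 (1.55 to 10.4), below the median over all genes of that library. All 4 summits lay on the same long annotated exon, which contains Snora44, Snora61 and Snord99. On this exon the summit was within Snora61 in EB eCLIP-1 and within Snora44 in EB eCLIP-2. It was just before Snora44 in embryo eCLIP-2 and just before Snora61 in the embryo input. Snora16a lay under the EB eCLIP-1 and embryo input peaks, and Snord99 under the embryo input peak alone.

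The remaining hosts had few tags. Snhg6 (chr1:9941959-9944118, minus strand) held 5 in embryo eCLIP-2 (2.70 per 100000) and 4 in EB eCLIP-2 (1.75 per 100000), on Snord87, with the summit on a host exon in the first and on Snord87 in the second. In RefSeq, Mcmdc2 on the opposite strand also reaches over Snord87, and peaks carry no strand. Snhg17 (chr2:158353700-158361580, minus strand) held 8 tags in embryo eCLIP-2 (4.32 per 100000), with the summit on Gm23925, and 3 in EB eCLIP-2 (1.31 per 100000), with the summit on Gm24411 (inside an exon), both listed as SNORA71 in RefSeq. Gm26003, the third snoRNA gene of Snhg17, had no peak. Neither Snhg6 nor Snhg17 had an input peak or a peak in the other eCLIP library of the tissue. Snhg5, the host of Snord50a and Snord50b on chr9:88521050-88522929, had no peak in any of the 6 lists.

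Together the hosts held 37 and 48 tags in embryo eCLIP-1 and embryo eCLIP-2, and 109 and 62 in EB eCLIP-1 and EB eCLIP-2, against 137 and 52 in the inputs of embryo and EB. Per 100000 library tags these were 27.0, 25.9, 65.8 and 27.1 in the eCLIP libraries, against 2.178 and 0.762 in the inputs. The mean was 36.5 ± 19.6 (SD, n = 4) in eCLIP and 1.47 ± 1.00 (SD, n = 2) in input, a difference of 35.01 (exact permutation test over libraries, two-sided, p = 0.0667, which is the smallest p that 4 libraries against 2 allow). All 4 eCLIP values lay above both inputs, and the difference was 24.3 in embryos and 45.7 in EBs. Peaks held 10.3% to 16% of all eCLIP tags but 0.989% and 0.754% of the input tags, so this sign does not single out the hosts. Of the tags in peaks, the hosts held 37 of 21844 and 48 of 25001 in embryo eCLIP-1 and embryo eCLIP-2. The embryo input held 137 of 62203, a larger share than either. EB eCLIP-1 and EB eCLIP-2 held 109 of 20839 and 62 of 23477, both larger shares than 52 of 51435 in the EB input. Sums of tags also grow with the length that was called. The peaks covered 2607, 3504, 7678 and 1717 bp in the 4 eCLIP libraries and 3706 and 2120 bp in the inputs, which gives 14.2, 13.7, 14.2 and 36.1 tags per kb of peak against 37.0 and 24.5. With the score of at least 100, which keeps the strongest peaks, the difference was 6.01 (p = 0.533 by the same exact test). That value came from EBs alone. No embryo eCLIP peak on a host reached this score, the highest being 96.05 on Snhg17 in embryo eCLIP-2. The embryo input kept its peaks on Snhg3 and Snhg12, with 68 and 46 tags, so in embryos the difference had the other sign.

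A host was called in a tissue when both of its eCLIP lists held a peak on it while the input list held none. Snhg8 was called in embryos (1 of 7 hosts, against 16.1% of 3000 genes), and Gas5, Snhg8 and Snhg12 were called in EBs (3 of 7 hosts, against 19.1% of 3022 genes). Input peaks were present on Snhg1, Snhg3 and Snhg12 (3 of 7 hosts, against 49.1% of 4546 genes). Host peaks also overlapped a peak of the other replicate in 2 of 4 cases for embryo eCLIP-1, 2 of 6 for embryo eCLIP-2, 5 of 6 for EB eCLIP-1 and 5 of 7 for EB eCLIP-2. Over all peaks of these libraries the share was 42.6%, 47.2%, 51.8% and 36.8% in the same order, and with so few host peaks no difference from it can be read.

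By the total, embryo eCLIP lay below EB eCLIP by an amount that rested on 1 library. Embryo eCLIP averaged 26.5 ± 0.772 per 100000 and EB eCLIP 46.5 ± 27.4 (SD, n = 2 each), a difference of -20.01 (exact permutation test over libraries, two-sided, p = 0.333, the smallest p that 2 libraries against 2 allow). Without EB eCLIP-1 the difference was -0.668. Both embryo values lay within 2 tags per 100000 of EB eCLIP-2. The amount of host RNA in the 2 tissues was not measured in these lists, and fewer cells of a type cannot be told apart from less RNA per cell.

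Each peak was classed by its deposited summit, with snoRNA genes taken first, so that exon here means an exon outside the snoRNA genes. Of the 23 eCLIP peaks, 19 had their summit on a snoRNA gene, 3 on a host exon (Gas5 in embryo eCLIP-1, Snhg6 and Snhg12 in embryo eCLIP-2) and 1 in another part of an intron (Snhg8 in embryo eCLIP-2). The comprehensive annotation puts this last summit on a host exon. In embryo eCLIP the summit lay on a snoRNA gene in 6 of 10 peaks, and in EB eCLIP in 13 of 13. Of the 5 input peaks, 2 had their summit on a snoRNA gene and 3 on a host exon. Because some snoRNA genes overlap exons, 7 of the 19 eCLIP summits on a snoRNA gene were also on an annotated host exon (3 of 6 in embryo and 4 of 13 in EB eCLIP) and 0 of the 2 input ones. In all, 10 of 23 eCLIP summits (6 of 10 in embryo and 4 of 13 in EB eCLIP) and 3 of 5 input summits lay on an exon, and 12 eCLIP summits lay on a snoRNA gene outside any exon.

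**Figure D3:**
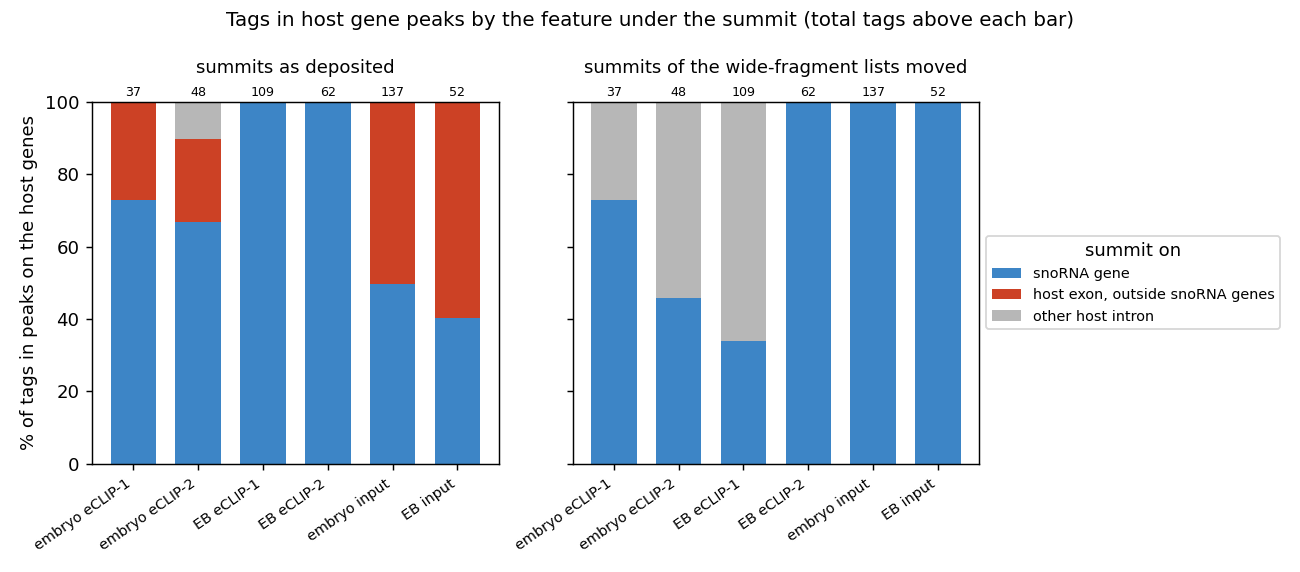
Percent of the tags in host gene peaks by the feature under the summit, snoRNA genes before exons, for each library, with summits as deposited on the left and with the summits of the lists called at a fragment size of 200 moved by 62 nt toward the 3′ end of the host on the right; tag totals stand above the bars. As deposited, both EB eCLIP bars are snoRNA only and the input bars hold the most exon, while after the move no library has a summit on an exon outside the snoRNA genes.

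Weighted by tags, every tag of a peak was counted to the feature under its summit, so these are not shares of tags on exons themselves. The EB input peak on Snhg1, classed as exon, covered 5 snoRNA genes with 403 bp and 227 bp of exon outside them. Peaks with the summit on an exon outside the snoRNA genes held 12.5% ± 14.5 (SD, n = 4) of host tags in eCLIP and 55.0% ± 6.54 (SD, n = 2) in input. The difference was -42.5 percentage points (exact permutation test over libraries, two-sided, p = 0.0667). For peaks with the summit on a snoRNA gene the shares were 84.9% ± 17.6 in eCLIP and 45% ± 6.54 in input, a difference of 39.9 points (p = 0.133 by the same exact test). Between tissues, these exon peaks held 24.97% ± 2.91 of host tags in embryo eCLIP and 0% in EB eCLIP (SD, n = 2 each), a difference of 24.97 points, and snoRNA peaks held 69.8% ± 4.46 and 100%, a difference of -30.2 points (exact permutation p = 0.333 for both, the smallest possible).

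These classes depended on their order and on where the summit was placed. With exons taken before snoRNA genes, the exon share differed by -8.82 points and the snoRNA share by 6.21 points between eCLIP and input, and between tissues by 45.4 and -50.6 points. Tags are extended by the fragment size before the summit is taken, and moving the summits of the 5 lists called at 200 by 62 nt, so that they line up with EB eCLIP-2, put 0 of 28 summits on an exon outside the snoRNA genes, although 6 eCLIP and 3 input summits then lay on a snoRNA gene and an exon at once. The lists do not give the strand of the tags, and the move assumes tags that start at the 3′ side of the RNA fragment. The eCLIP peaks then stood at 16 on snoRNA genes and 7 in other intron, and all 5 input peaks lay on a snoRNA gene. The difference in the snoRNA share then had the other sign, -36.8 points, and that between tissues was -7.57 points. The 3 EB peaks that left a snoRNA gene were both Gas5 peaks and the Snhg1 peak of EB eCLIP-1, with 72 tags together. Widening the snoRNA genes by 50 nt turned the exon difference to 9.36 points and the snoRNA difference to -9.36 points, and the tissue differences became 18.7 and -18.7 points. The overlap of every peak with a snoRNA gene did not depend on the summit, but it held for eCLIP and input peaks alike. Gas5 holds 9 snoRNA genes in 4118 bp and Snhg1 8 in 2969 bp, so a long peak there is likely to cover one. No share expected from the spacing of the snoRNA genes was computed.

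The 3′ edges of the peaks gave a second description of position. In 12 of the 23 eCLIP peaks the edge lay 10 to 20 nt past the 3′ end of the last snoRNA gene they covered, with a median of 15 nt over the 23, against 0 of the 5 input peaks. This window was chosen after the values were seen, and it carries no test. The 5 input edges on the hosts lay at -3, 3, 183, 211 and 246 nt. Over the snoRNA genes outside the 8 hosts, 53 of 144 eCLIP peaks (36.8%) and 2 of 33 input peaks (6.06%) ended in the same window. Their median edges were 13.5 nt in eCLIP and 10 nt in input, so the counts in the window overstate how far the 2 kinds of peak differed in position. The last 12 bases of the snoRNA gene are given here in capitals, followed in lower case by the bases up to the edge of the peak.
Snord22, embryo eCLIP-1, embryo eCLIP-2 and EB eCLIP-2 (chr19:8725980-8726003, plus strand): TGTCTGAGGGATcatttttgtgcg
Snora24, embryo eCLIP-2 (chr3:123507924-123507948, minus strand): CAAGTGACATTCtaagattgtaaga
Snora24, EB eCLIP-2 (chr3:123507919-123507948, minus strand): CAAGTGACATTCtaagattgtaagagtcta
Snord87, embryo eCLIP-2 and EB eCLIP-2 (chr1:9942448-9942474, minus strand): TGAGATGCCAGCagtatatagatgatg
Snora61, EB eCLIP-1 (chr4:132310358-132310381, plus strand): ACTCAGACATGCctgggctttgaa
Snora44, EB eCLIP-2 (chr4:132310058-132310085, plus strand): TTTCCTATATATgtatatcaggcctcaa
On Snord22, 3 libraries ended on the same base, 12 nt past the gene, among them both embryo libraries and the EB library called with the other fragment size. On Snord87 both libraries ended on the same base, 15 nt past the gene. On Snora24 the edges lay 13, 14 and 18 nt past the end in the second embryo library and both EB libraries, while embryo eCLIP-1 ended 89 nt past it. On Snora61 they lay 11 nt past in embryo eCLIP-2 and 12 nt past in EB eCLIP-1. The distances depend on the annotated ends, since RefSeq ends Snord87 7 nt earlier than Gencode does.

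**Figure D4:**
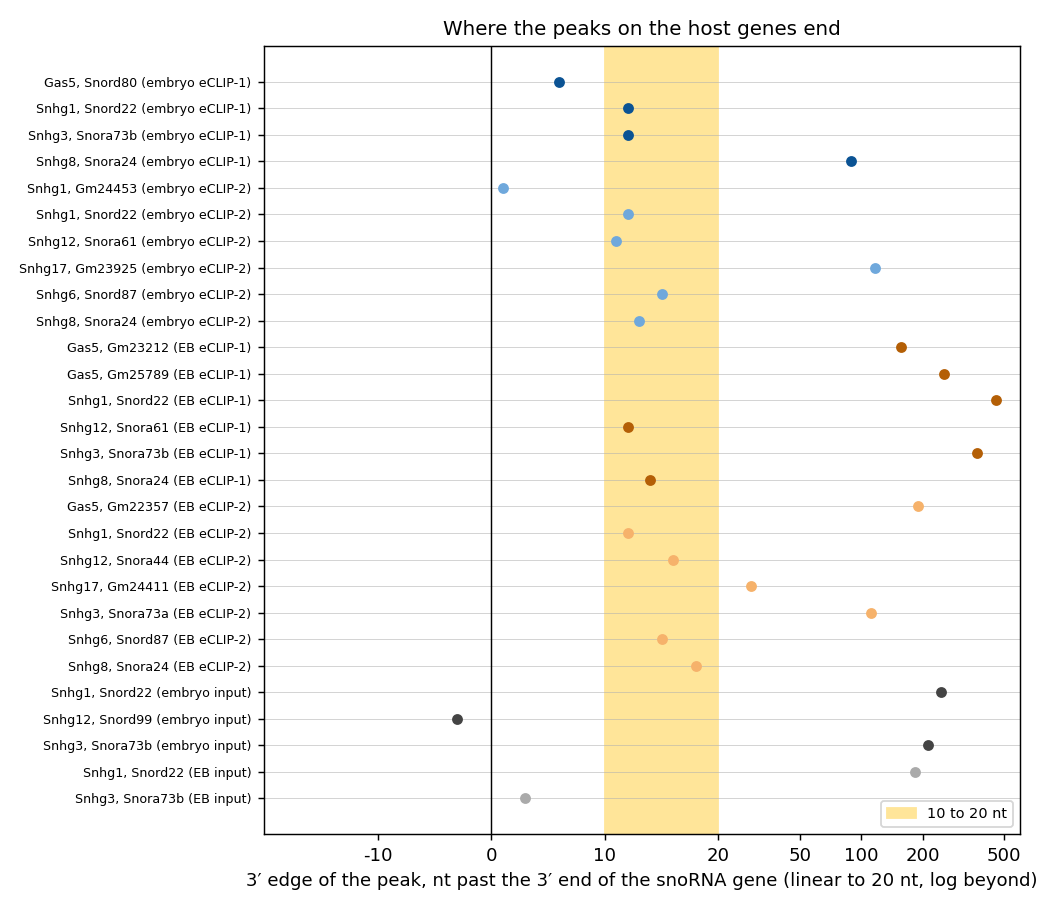
Distance of the 3′ edge of each of the 28 peaks past the 3′ end of the last snoRNA gene it covers, in nt, for the 23 eCLIP peaks above and the 5 input peaks below; the axis is linear to 20 nt and logarithmic beyond, and the band marks 10 to 20 nt. Of the eCLIP points, 12 fall in the band, and no input point does.

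The same classes, snoRNA genes first, were taken for other snoRNA hosts. Over 279 protein-coding genes that hold a snoRNA gene, 54.9% and 58.8% of the peaks in embryo eCLIP-1 and embryo eCLIP-2, and 44.4% and 60.99% in EB eCLIP-1 and EB eCLIP-2, had their summit on a host exon outside a snoRNA gene, against 12.1% and 22.9% in the inputs of embryo and EB. Summits on a snoRNA gene made up 10.99%, 9.28%, 14.8% and 14.9% in the eCLIP libraries, against 10.6% and 11.4% in the inputs. The difference between the 2 kinds of host was not tested. The 5 with the most eCLIP tags were Ncl (nucleolin) with 477, Gm20388 with 440, Rpl4 (a ribosomal protein) with 374, Chd4 (a chromatin remodeller) with 212 and Hspa8 (a heat shock protein) with 148. Of their peaks, only 2 on Hspa8 had the summit on a snoRNA gene. Of 12 other noncoding hosts, 9 are annotated under that name. Zfas1 held 4 tags in embryo eCLIP-2 and 4 in EB eCLIP-2, Dancr 5 in embryo eCLIP-1 and 10 in EB eCLIP-1 against 25 and 19 in the embryo and EB inputs, and Snhg10 3 in EB eCLIP-1. Snhg9, Snhg11 and Snhg15 had input peaks only, and Snhg14, Snhg18 and Snhg20 had none.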

How the data were processed

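STRAP eCLIP peak lists of 4 eCLIP and 2 input libraries were used, grouped by their deposited labels. The labels give E9.5 for the embryos, while a figure legend of the study gives an earlier stage. The authors trimmed reads with cutadapt, removed those matching mouse repeats, used STAR 2.5.2b to align what was left to GRCm38 (Gencode M11), and called peaks per library with MACS 1.4.2. Per the file headers the p cutoff was 1e-05 and no control library was given, although the study's methods describe a comparison with input. The alignment settings allow reads with several placements, which touches near-identical snoRNAs. Each deposited peak has a count of tags, not scaled between libraries. The deposited score is the negative log10 of the p-value, times 10, and the deposited fold is a ratio to the background of the same library. Start, end, length and summit are deposited positions, counted from 1, without strand.

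Tags were divided by the total of the library, per 100000. A summit was classed as snoRNA gene, then host exon (Gencode M21 basic annotation), then other host intron. Groups were compared by exact permutation over libraries, two-sided, threshold 0.05, checked on simulated data. Libraries are labelled as separate samples, and each p-value ranks the observed difference among all relabellings of these libraries. The 15 arrangements of 4 libraries against 2 swap labels across tissues, so they ignore which tissue each input belongs to. Counts have 95% exact Poisson intervals and ratios exact binomial ones, for counting error only. Alternatives were peaks over 5-fold, scores of at least 100, summits inside the span, moved summits, class by interval, snoRNA genes widened by 50 nt, leaving out each eCLIP library, and a replicate block; the comprehensive annotation and exons classed before snoRNA genes were added after seeing the data. Named were all hosts, their snoRNA genes under a peak, other noncoding hosts with a peak, and the 5 protein-coding hosts with the most eCLIP tags; members and lists were chosen with earlier results of these data known. Sequences came from the RefSeq GRCm38 assembly, in which all 10666 peaks on assembled chromosomes end inside them. Copies were sought with blastn 2.17.0. Python 3.11.15, pandas 2.3.3, numpy 2.4.6 and SciPy 1.17.1 were used.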

Additional observations from a re-analysis of the deposited data

How the results depend on the processing

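Keeping peaks over 5-fold, or with the summit inside the span, removed none of the 28 peaks, so neither setting could change the 6 comparisons. The lowest fold was 7.32, for a Gas5 peak in EB eCLIP-1. With scores of at least 100 the total differed by 6.01 between eCLIP and input and by -14.1 between embryo and EB eCLIP. The 6.01 came from EBs, since no embryo eCLIP peak was left while the embryo input kept peaks on Snhg3 and Snhg12. The exon share then differed by -20.2 and the snoRNA share by 20.2 points between eCLIP and input. No tissue value for the shares was possible without an embryo eCLIP peak. Moved summits gave a difference of 0 in the exon share in both comparisons and of -36.8 (eCLIP and input) and -7.57 points (tissues) in the snoRNA share, and class by interval gave 0 in all 4 share comparisons. With snoRNA genes widened by 50 nt, the exon difference between eCLIP and input was 9.36 and the snoRNA difference -9.36 points, and between tissues they were 18.7 and -18.7. Leaving out each eCLIP library gave 25.2 to 38.5 for the total between eCLIP and input and -39.4 to -0.668 between tissues, the last without EB eCLIP-1. For the exon share it gave -47.4 to -38.3 points between eCLIP and input and 22.9 to 27.0 between tissues, and for the snoRNA share 34.9 to 46.0 and -33.3 to -27.0. The comprehensive annotation kept the direction of all 4 share comparisons, and so did exons classed before snoRNA genes, with -8.82 and 6.21 points between eCLIP and input and 45.4 and -50.6 between tissues. The cause of these changes was not tested, other than by construction of the alternatives. The labels give no shared origin to embryo and EB libraries of the same number. With the number as a replicate block the tissue differences stayed at -20.01, 24.97 and -30.2 with p = 0.5 (exact), the smallest p the block allows, and the deviations of same-numbered libraries correlated at 0.71 over the 8 hosts (Pearson's r, a description over 2 pairs). With 3 to 31 tags in each eCLIP peak on a host, counting error limits every single value.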
